A study of Homo sapiens and Mus musculus with 29 samples.

Results

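Brush border genes of the enterocyte, the absorptive cell of the small intestine, were followed in tumors and metastases of a human pancreatic cancer cell line grown in mice. The list holds 36 genes, chosen by symbol with earlier results of these data known, and 28 of them reached the minimum set for testing, a mean of 0.3 RPKM (reads scaled to exon length and to the depth of the library) over the 21 human samples, among 19900 such genes in all. The mean level over all samples therefore selected the members on the readout itself, so that a gene low in 1 group and high in another could pass through its high group alone. Counts over the 28 genes are given as descriptions for that reason. ANPEP and FABP2 passed with control means of 0.221 and 0.155 RPKM. Just inside the minimum stood FABP2, with a mean of 0.310 RPKM, and just outside it TM4SF20, with 0.267 RPKM.

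The brush border is the dense layer of microvilli on the apical face of absorptive cells. Each microvillus holds a core of parallel actin filaments that villin, espin and plastin bundle and that myosin 1a ties to the membrane, while cadherins at the tips link neighboring microvilli through a complex of CDHR2, CDHR5, USH1C, ANKS4B and MYO7B. The membrane carries the digestive hydrolases and the nutrient transporters of the enterocyte, and the cytosol is rich in fatty acid binding proteins. HNF4A and HNF4G, a pair of related nuclear receptors, are known regulators of these genes in the intestine, together with the CDX factors.

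The study asked what loss of HNF4G and gain of FOXA1, a pioneer factor, do to pancreatic tumors and their metastases. HPAF-II is an established line of human pancreatic ductal adenocarcinoma, and the cells were implanted into the pancreas of NSG mice, which lack adaptive immunity. Control tumors (n = 3) came from Cas-9-EV cells, that is, cells taken through Cas9 with an empty vector. The HNF4G-KO tumors (n = 4) carried CRISPR edits of HNF4G and the empty vector, the FOXA1-OE tumors (n = 3) carried Cas-9 and FOXA1 delivered by lentivirus, and the HNF4G-KO+FOXA1-OE tumors (n = 5, from 4 mice) carried both. The knockout cells were pooled clones, so clonal differences and the edit cannot be told apart. There were also 2 peritoneal metastases from HNF4G-KO mice and 4 metastases from HNF4G-KO+FOXA1-OE mice, of which 1 was taken from the spleen, 1 from the peritoneum and 2 were labeled peri mets in fat. Mouse genes were read in 2 cell lines of the KPC model of pancreatic cancer, a tumor line and a liver metastasis line, with 4 libraries each. No label says that the KPC libraries came from separate cultures, so their p-values measure the spread between these libraries only.

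Several libraries went against their labels or stood apart. HNF4G itself was higher in the 4 tumors labeled HNF4G-KO, at 5.72 to 8.42 RPKM, than in the control tumors, at 2.48 to 3.47 RPKM. A value over the whole gene does not read a small frameshift edit, so it does not check the knockout. FOXA1 was at 0.519 to 0.932 RPKM in control tumors and at 6.32 and 8.18 RPKM in FOXA1-OE tumors 1 and 2, but at 0.763 RPKM in FOXA1-OE tumor 3. Of the HNF4G-KO+FOXA1-OE metastases, number 2 had 17.9 RPKM of FOXA1 and the others had 0.535 to 1.55 RPKM, against 4.65 to 23.1 RPKM in the tumors of that group. Epithelial markers were high in every sample, with a summed level of 3151 to 6225 RPKM over 8 genes. Among the host marker lists, the pancreas list summed to 1008 RPKM in control tumor 2 and to at most 48.7 RPKM in the other samples, and the stroma list to 65.8 to 205 RPKM in control tumors and 55.0 to 78.0 RPKM in HNF4G-KO tumors. The libraries also differed in how high genes of short exon length (at most 1500 bases) stood relative to genes of long exon length (at least 6000 bases). On the log2 scale, relative to the mean of all samples, this difference was -0.28 to -0.20 in the HNF4G-KO tumors and -0.01 to 0.28 in the control tumors, and it was highest, among the 21 samples, in HNF4G-KO+FOXA1-OE tumor 5 (0.55) and FOXA1-OE tumor 3 (0.41).

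For 28 of the 36 genes RefSeq promoters were at hand, 39 in all, since some genes have several starts. Each runs from 250 bases before to 50 bases after a transcription start. Motif letters of gut regulators were searched on both strands. The HNF4 letters CAAAGTNCA were in 5 of the 39 promoters (12.8%), 2 of them overlapping starts of PDZK1, against 1.10% of all 35116 promoters. The others belong to TREH, MYO1A and TM4SF5. Of these 4 genes, PDZK1 and TREH were below the minimum and were not tested at the threshold used below. Of MYO1A and TM4SF5, MYO1A alone differed between tumor groups at that threshold. The CDX letters TTTATNG were in 7 (17.9%, against 9.73%), the FOXA letters TGTTTAC in 2 (5.13%, against 3.42%) and the GATA letters AGATAA in 5 (12.8%, against 10.3%). The 2 promoters with FOXA letters are overlapping ones of TSPAN8 and hold the same site. All of these hits are matches of letters and no evidence of binding. The entries of PHGR1, LCT, MEP1A, VIL1, EPS8, CDH17, CDHR5 and ESPN were not used here. Promoters of 4 genes that differed between tumor groups are shown because they hold such letters, in capitals, and because they span different roles: a microvillus motor, a lipid carrier and a pair of tetraspan membrane proteins. All are from GRCh38.p14 and read 5′ to 3′ on the strand of the gene. MYO1A on the minus strand is given at 2 starts, chr12:57051149-57051448 with CDX letters, and chr12:57050080-57050379 with CDX letters and, 30 bases upstream of the start, the HNF4 letters. FABP1 on the minus strand lies at chr2:88128013-88128312, with CDX letters 90 and 32 bases upstream. TSPAN8 on the minus strand lies at chr12:71157760-71158059, with FOXA letters 243 bases upstream of this start and 53 bases upstream of its other start. TM4SF4 on the plus strand lies at chr3:149474447-149474746, with CDX letters 76 bases upstream.
MYO1A, outer start: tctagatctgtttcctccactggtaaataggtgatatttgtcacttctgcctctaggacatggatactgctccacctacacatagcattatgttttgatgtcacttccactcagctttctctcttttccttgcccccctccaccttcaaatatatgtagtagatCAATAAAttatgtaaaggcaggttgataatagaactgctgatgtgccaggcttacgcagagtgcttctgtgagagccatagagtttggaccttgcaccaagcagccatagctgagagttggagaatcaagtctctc
MYO1A, inner start: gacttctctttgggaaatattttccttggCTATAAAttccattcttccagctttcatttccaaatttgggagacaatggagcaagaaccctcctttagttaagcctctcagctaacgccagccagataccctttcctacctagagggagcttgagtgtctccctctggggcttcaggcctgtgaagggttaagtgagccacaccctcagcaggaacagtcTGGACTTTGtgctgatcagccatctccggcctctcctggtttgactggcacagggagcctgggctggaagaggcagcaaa
FABP1: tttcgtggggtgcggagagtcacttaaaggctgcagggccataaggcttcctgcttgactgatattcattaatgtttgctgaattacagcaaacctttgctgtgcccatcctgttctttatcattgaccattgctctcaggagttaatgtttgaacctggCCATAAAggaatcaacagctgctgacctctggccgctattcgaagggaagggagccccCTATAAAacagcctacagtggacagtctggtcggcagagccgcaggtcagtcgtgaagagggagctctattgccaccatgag
TSPAN8: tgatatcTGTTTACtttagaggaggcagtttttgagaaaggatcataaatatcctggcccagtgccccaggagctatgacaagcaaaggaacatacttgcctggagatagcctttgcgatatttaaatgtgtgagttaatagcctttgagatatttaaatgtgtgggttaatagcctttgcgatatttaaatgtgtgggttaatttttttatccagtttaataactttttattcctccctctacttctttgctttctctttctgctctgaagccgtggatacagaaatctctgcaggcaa
TM4SF4: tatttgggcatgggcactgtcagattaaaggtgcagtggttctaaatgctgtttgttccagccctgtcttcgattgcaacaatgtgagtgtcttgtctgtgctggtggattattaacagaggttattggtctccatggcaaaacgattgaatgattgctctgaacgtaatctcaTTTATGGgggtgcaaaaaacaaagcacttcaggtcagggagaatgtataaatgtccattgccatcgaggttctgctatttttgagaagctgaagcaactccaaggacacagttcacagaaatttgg

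RPKM is a level per length, so levels can be set beside each other between genes. TM4SF4, a tetraspan protein of the epithelial surface, had the highest mean over the 21 samples at 518 RPKM, followed by TSPAN8 at 455 RPKM, PHGR1 at 396 RPKM and EZR at 348 RPKM. The microvillus core and the adhesion complex were present throughout: all 13 of their genes passed the minimum, with means from 2.88 RPKM for ESPN to 348 RPKM for EZR, and VIL1, which encodes villin, averaged 61.2 RPKM. Several hydrolases and transporters that mark a mature enterocyte were low. Means of 0.235 RPKM for ALPI (intestinal alkaline phosphatase), 0.0607 RPKM for SI (sucrase-isomaltase) and 0.0134 RPKM for LCT (lactase) fell below the minimum, as did TREH, PDZK1, SLC26A3, SLC7A9 and TM4SF20. Other enterocyte genes stood higher, with means of 4.88 RPKM for DPP4, 5.05 RPKM for SLC15A1, 1.97 RPKM for SLC5A1 and 5.72 RPKM for FABP1. The samples thus held the RNA of the structural part of a brush border, whereas the enterocyte genes were mixed and ALPI, SI and LCT fell below the minimum. The list therefore names a gene group here and not a cell type.

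**Figure D1:**
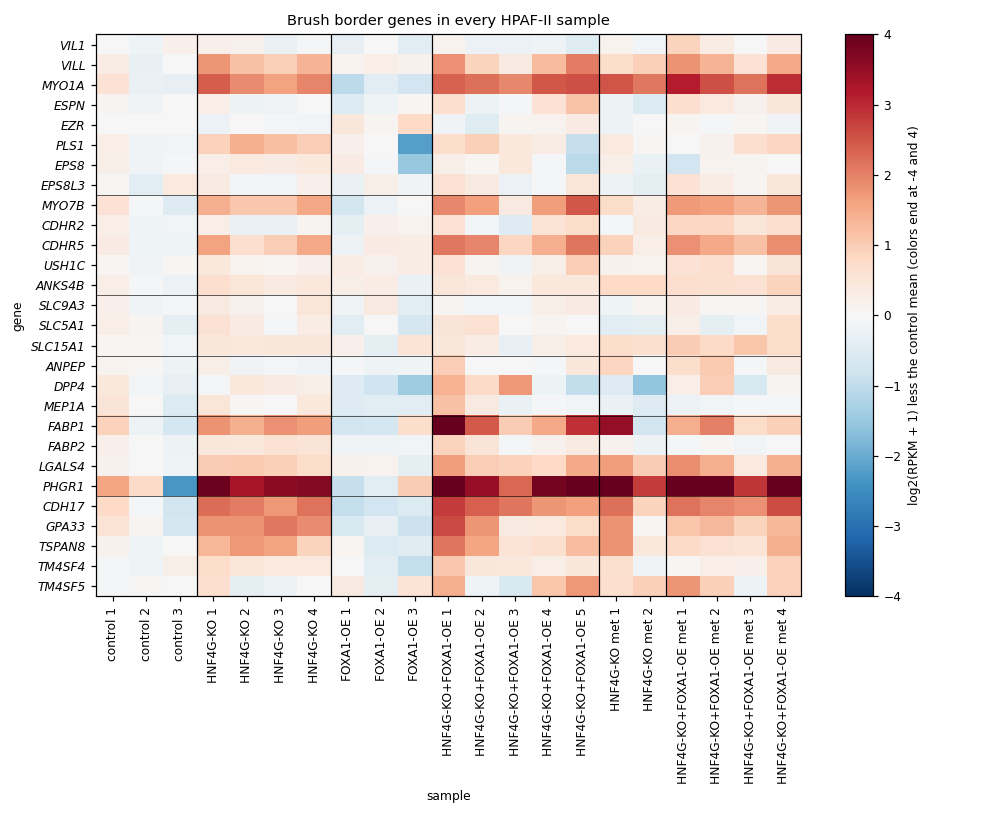
Difference of log2(RPKM + 1) from the mean of the 3 control tumors, by color, for the 28 brush border genes tested (rows, grouped by role) in each of the 21 HPAF-II samples (columns, grouped by label). MYO1A, PHGR1 and CDH17 are red in every tumor and metastasis labeled HNF4G-KO or HNF4G-KO+FOXA1-OE, while VIL1 and EZR had log2 fold changes of 0.02 and -0.10 in HNF4G-KO tumors.

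In HNF4G-KO tumors, 9 of the 28 genes were higher than in control tumors and none was lower, at an adjusted p under 0.05 in a limma fit over all genes. They were MYO1A and VILL of the microvillus core, CDHR5 and MYO7B of the tip complex, PHGR1 and LGALS4, and the surface proteins CDH17, GPA33 and TSPAN8. The 9 genes are 32.1% of those tested, and 4.96% of all genes tested were called higher. HNF4G-KO+FOXA1-OE tumors were compared with the same control tumors, and there 9 of 28 genes (32.1%) were higher and none lower, beside 1.79% of all genes. The median log2 fold change of the 28 genes was 0.46 in HNF4G-KO and 0.42 in HNF4G-KO+FOXA1-OE tumors, against 0.00 and -0.03 for all genes tested. Every HNF4G-KO tumor lay above every control tumor for 16 of the 28 genes (57.1%, against 21.9% of all genes), and every HNF4G-KO+FOXA1-OE mouse did so for 11 (39.3%, against 6.80%). In a tumor, a change in the number of cancer cells that express a gene and a change in RNA per cell cannot be told apart.

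The calls against control depended on the tumors in the fit. When only the groups compared were fitted, 15 of the 28 genes were higher in HNF4G-KO tumors (16.2% of all genes) and 0 in HNF4G-KO+FOXA1-OE tumors (0% of all genes), so the 9 calls of the latter were made only in fits where the other groups share in the estimate of the spread. With control tumor 2 or control tumor 3 left out, 2 genes, MYO1A and CDH17, were called in HNF4G-KO tumors (0.889% and 1.31% of all genes), and 4 and 3 genes in HNF4G-KO+FOXA1-OE tumors (0.482% and 0.392%). Control tumor 1 was the highest of the 3 for 24 of the 28 genes and control tumor 3 the lowest for 14. With the difference of short and long genes as a covariate, 6 and 9 genes were higher (2.7% and 4.06% of all genes). GPA33, LGALS4 and TSPAN8 were those lost in HNF4G-KO tumors. With the 3 tumors that had the largest summed RPKM over all genes (FOXA1-OE tumor 3 and HNF4G-KO+FOXA1-OE tumors 4 and 5) left out, 13 and 12 were higher (15.1% and 4.37%).

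**Figure D2:**
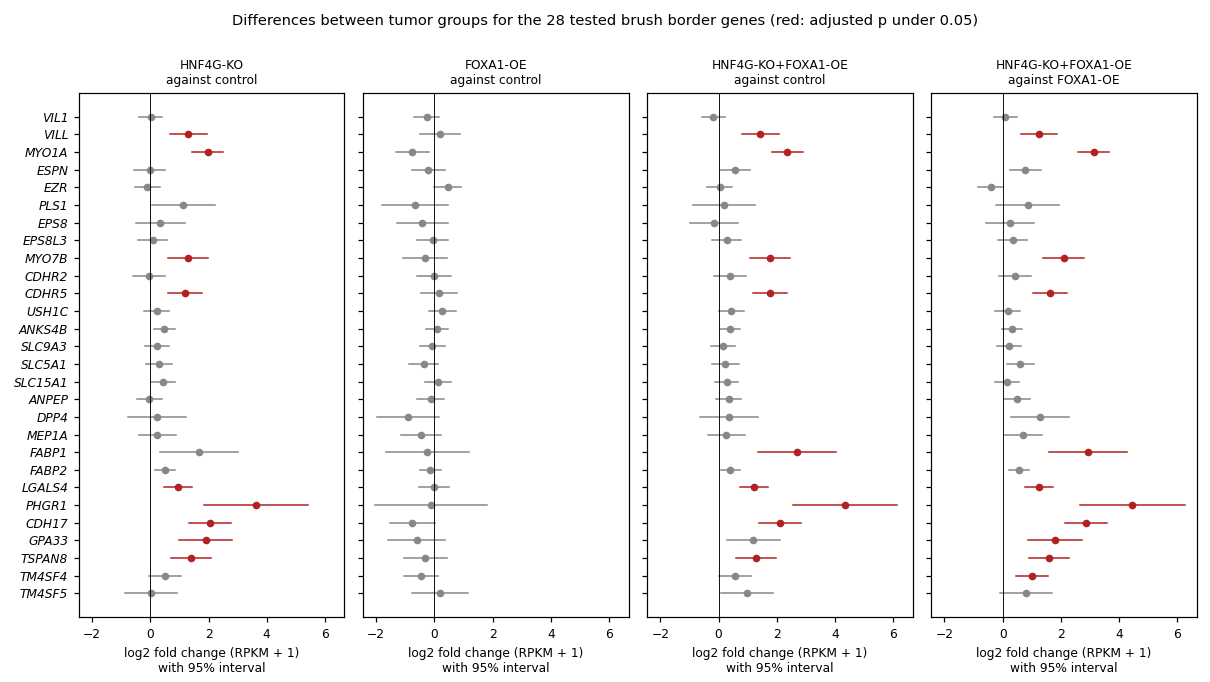
Log2 fold changes of log2(RPKM + 1) with 95% confidence intervals from the limma fit for the 28 genes tested (rows, grouped by role) in 4 comparisons of tumor groups (panels). Red marks an adjusted p under 0.05. The panels against control show 9 red genes each for HNF4G-KO and HNF4G-KO+FOXA1-OE and none for FOXA1-OE, and the panel against FOXA1-OE shows 11.

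Among the 8 genes of the microvillus core, 2 rose in both groups. MYO1A (ENSG00000166866.12, chr12:57028517-57051198 in GRCh38, minus strand) encodes myosin 1a, the motor that links the actin core to the microvillus membrane. Its level was 8.46, 4.31 and 4.10 RPKM in the 3 control tumors, 33.1, 22.6, 18.5 and 23.7 RPKM in the 4 HNF4G-KO tumors and 31.8, 28.1, 23.2, 34.3 and 36.7 RPKM in the 5 HNF4G-KO+FOXA1-OE tumors. No value of either group overlapped the controls, and the log2 fold changes were 1.97 (SE 0.25, adjusted p = 8.2e-04) and 2.37 (SE 0.25, adjusted p = 8.9e-04). MYO1A stayed called in each of the 7 fits that left out a mouse, in both comparisons, but in the fit of only HNF4G-KO+FOXA1-OE and control tumors its adjusted p was 0.053.

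VILL (ENSG00000136059.14, chr3:37988059-38007188, plus strand) encodes villin-like, a relative of the actin bundler villin. It measured 20.3, 13.1 and 16.4 RPKM in control tumors, 57.8, 38.3, 32.3 and 43.3 RPKM in HNF4G-KO tumors and 60.0, 31.1, 21.4, 41.1 and 70.7 RPKM in HNF4G-KO+FOXA1-OE tumors. Both groups stood above the controls, by 1.31 (SE 0.29, adjusted p = 0.018) and 1.44 (SE 0.29, adjusted p = 0.018). Without control tumor 2 or 3 neither call was made, with adjusted p up to 0.099 and 0.096. VIL1 itself measured 59.5, 52.9 and 68.7 RPKM in control tumors and 68.7, 67.6, 50.2 and 58.3 RPKM in HNF4G-KO tumors, a log2 fold change of 0.02 (SE 0.18, adjusted p = 0.96). The 95% interval of that difference was -0.38 to 0.41.

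PLS1 (ENSG00000120756.12), the plastin that bundles microvillar actin, measured 45.0, 33.9 and 34.2 RPKM in control and 72.0, 102, 88.0 and 74.2 RPKM in HNF4G-KO tumors. These groups did not overlap, yet the log2 fold change of 1.13 (SE 0.50, adjusted p = 0.16) did not pass. The shared fit also took in 7.41 RPKM in FOXA1-OE tumor 3 and 19.3 RPKM in HNF4G-KO+FOXA1-OE tumor 5, and the fit of control and HNF4G-KO tumors alone gave an adjusted p of 0.0029. The other 5 core genes, ESPN, EPS8, EPS8L3, EZR and VIL1, had log2 fold changes of -0.10 to 0.35 in HNF4G-KO and -0.18 to 0.57 in HNF4G-KO+FOXA1-OE tumors.

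The tip complex split in the same way. CDHR5 (ENSG00000099834.18, chr11:616577-626078, minus strand), a protocadherin of microvillus tips, measured 20.4, 14.0 and 14.1 RPKM in control, 50.4, 26.2, 32.7 and 47.3 RPKM in HNF4G-KO and 71.4, 64.1, 29.6, 45.4 and 73.6 RPKM in HNF4G-KO+FOXA1-OE tumors. It was higher in both groups, by 1.20 (SE 0.27, adjusted p = 0.018) and 1.77 (SE 0.27, adjusted p = 0.0045). The call of CDHR5 in HNF4G-KO tumors was lost in 3 of the 7 fits that left out a mouse. MYO7B (ENSG00000169994.18, chr2:127535683-127637729, plus strand), the myosin of this complex, measured 6.38, 3.67 and 2.47 RPKM in control, 12.5, 9.33, 9.47 and 13.4 RPKM in HNF4G-KO and 17.6, 14.3, 5.35, 14.8 and 26.5 RPKM in HNF4G-KO+FOXA1-OE tumors. HNF4G-KO+FOXA1-OE tumor 3, from the mouse that also bore tumor 2, lay within the control range at 5.35 RPKM. The log2 fold changes of MYO7B were 1.29 (SE 0.32, adjusted p = 0.028) and 1.77 (SE 0.32, adjusted p = 0.011), and the first was lost in 6 of the 7 fits that left out a mouse. Their partners CDHR2, USH1C and ANKS4B did not pass, with log2 fold changes of -0.04, 0.21 and 0.48 in HNF4G-KO and 0.39, 0.44 and 0.40 in HNF4G-KO+FOXA1-OE tumors.

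PHGR1 (ENSG00000233041.8, chr15:40351033-40356434, plus strand), a small histidine- and glycine-rich protein of gut epithelium, had the largest log2 fold change of the 28 genes against control in both groups. Control tumors measured 80.3, 45.3 and 4.53 RPKM, a wide spread for 3 tumors of a group. The HNF4G-KO tumors measured 419, 268, 336 and 349 RPKM and the HNF4G-KO+FOXA1-OE tumors 681, 305, 135, 392 and 1762 RPKM. All were above every control tumor, and the log2 fold changes were 3.63 (SE 0.83, adjusted p = 0.02) and 4.34 (SE 0.83, adjusted p = 0.014). Its exon length is only 941 bases, and the highest value stood in HNF4G-KO+FOXA1-OE tumor 5, the library in which short genes were highest. Without that tumor the second log2 fold change was 3.79, while without control tumor 3 the first was 2.47 at an adjusted p of 0.074.

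LGALS4 (ENSG00000171747.8, chr19:38801671-38812945, minus strand) encodes galectin-4, a lectin of gut epithelium that takes part in apical transport. Control tumors had 65.5, 58.4 and 52.2 RPKM, HNF4G-KO tumors 118, 123, 115 and 98.1 RPKM and HNF4G-KO+FOXA1-OE tumors 190.1, 115, 112, 102 and 167 RPKM. The groups did not overlap, with log2 fold changes of 0.94 (SE 0.22, adjusted p = 0.022) and 1.23 (SE 0.22, adjusted p = 0.011). The call of LGALS4 in HNF4G-KO tumors was lost in 5 of the 7 fits that left out a mouse. FABP1 (ENSG00000163586.9, chr2:88122982-88128062, minus strand), the liver-type fatty acid binding protein, measured 2.19, 0.484 and 0.0328 RPKM in control, 4.90, 3.51, 5.00 and 4.42 RPKM in HNF4G-KO and 39.3, 8.25, 2.44, 3.83 and 12.0 RPKM in HNF4G-KO+FOXA1-OE tumors. The first log2 fold change, 1.68 (SE 0.62, adjusted p = 0.10), missed the threshold although the values lay apart, and the second, 2.69 (SE 0.62, adjusted p = 0.031), passed. FABP2, its intestinal relative, measured 0.326, 0.138 and 0 RPKM in control and 0.565, 0.535, 0.744 and 0.654 RPKM in HNF4G-KO tumors, and its log2 fold change was 0.50 (SE 0.16, adjusted p = 0.061).

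CDH17, or LI-cadherin (ENSG00000079112.9, minus strand), joins intestinal cells at their lateral faces. It measured 49.8, 26.8 and 16.6 RPKM in control tumors, 137, 119, 95.6 and 131 RPKM in HNF4G-KO tumors and 200.2, 153, 129, 98.3 and 89.6 RPKM in HNF4G-KO+FOXA1-OE tumors. Neither group reached down to the controls, and the log2 fold changes of 2.05 (SE 0.33, adjusted p = 0.0038) and 2.12 (SE 0.33, adjusted p = 0.005) kept their calls whichever mouse was left out, although the second was lost in the fit of only its own groups (adjusted p = 0.074). GPA33 (ENSG00000143167.11, chr1:167052836-167166479, minus strand), a cell surface antigen of gut epithelium, measured 1.97, 1.21 and 0.279 RPKM in control and 6.11, 6.04, 7.80 and 6.48 RPKM in HNF4G-KO tumors, a log2 fold change of 1.90 (SE 0.43, adjusted p = 0.018). With FOXA1 added the values scattered, at 11.7, 5.85, 1.59, 1.64 and 2.37 RPKM, and the log2 fold change against control was 1.20 (SE 0.43, adjusted p = 0.15). The tetraspanin TSPAN8 (ENSG00000127324.8, chr12:71125085-71441898, minus strand) measured 259.5, 204 and 235 RPKM in control, 589, 766, 712 and 430.2 RPKM in HNF4G-KO and 1023, 698, 338, 365 and 547 RPKM in HNF4G-KO+FOXA1-OE tumors, with log2 fold changes of 1.39 (SE 0.32, adjusted p = 0.02) and 1.27 (SE 0.32, adjusted p = 0.044). TSPAN8 against control in HNF4G-KO+FOXA1-OE tumors was called in 1 of the 7 fits that left out a mouse. In HNF4G-KO tumors such fits lost the call of GPA33 in 3 of 7 and that of TSPAN8 in 4 of 7. TM4SF5 did not pass, with log2 fold changes of 0.02 and 0.98.

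**Figure D3:**
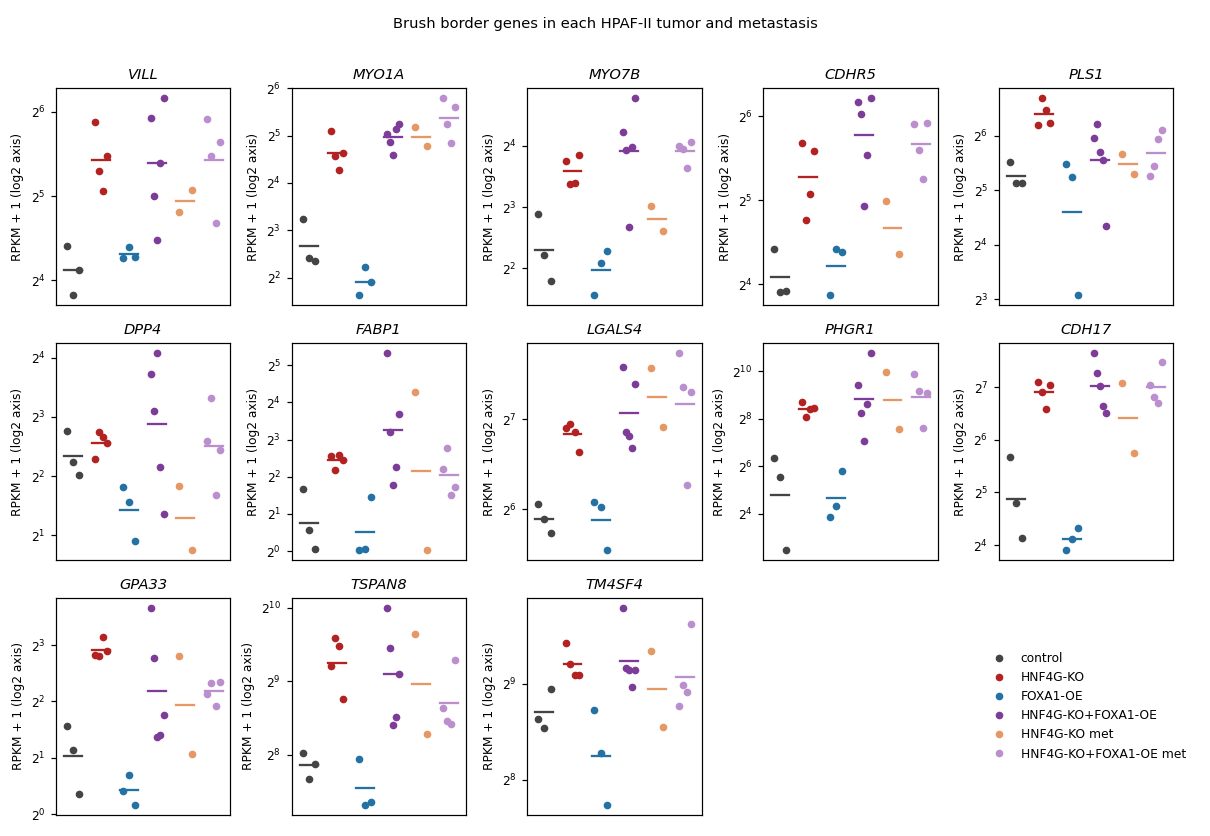
RPKM + 1 on a log2 axis for the 13 genes that were called or whose log2 fold change reached 1 in either direction in any HPAF-II comparison. Points are single tumors or metastases, colored by group, and lines are group means on the log2 scale over samples. MYO1A, LGALS4 and CDH17 show HNF4G-KO and HNF4G-KO+FOXA1-OE tumors above all control and FOXA1-OE tumors.

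With FOXA1 alone no brush border gene passed the threshold. FOXA1 itself did not pass in this comparison either, with a log2 fold change of 1.53 (SE 0.48, adjusted p = 0.84). The lack of calls therefore does not show a lack of effect. Against control, 0 of the 28 genes were called in limma, as were 0% of all genes. An unadjusted p under 0.05 was seen for 1021 of the 19900 genes and 1 of the 28, about the share that this cutoff passes by chance. A count model on reads rebuilt from RPKM (limma-voom) called 0 of the 28 too. The gene of low unadjusted p was MYO1A, at 2.09, 3.64 and 2.73 RPKM, where all 3 FOXA1-OE tumors lay under all control tumors, a log2 fold change of -0.75 (SE 0.26, adjusted p = 0.84). Over the 28 genes the median log2 fold change was -0.18, and 7 were above 0. FOXA1-OE had the lowest mean of the 4 tumor groups for 20 of the 28 genes and the highest for 1, which was EZR. Ezrin, the linker of membrane and actin, measured 457, 358 and 585 RPKM in FOXA1-OE tumors, where control tumors had 340.1, 327 and 335 RPKM, and the log2 fold change of 0.45 (SE 0.21, adjusted p = 0.84) did not pass. FOXA1-OE tumor 3, in which FOXA1 was at the control level, held the highest EZR value and the lowest PLS1 value of the group. Leaving it out gave 0 called genes too.

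Brush border genes also differed between HNF4G-KO+FOXA1-OE and FOXA1-OE tumors, the comparison that varies the HNF4G label among tumors labeled with FOXA1. There 11 of the 28 genes were higher (39.3%, against 2.96% of all genes) and none lower, with a median log2 fold change of 0.79 against 0.00 for all genes, and 15 genes lay apart (53.6%, against 6.04%). MYO1A rose by a log2 fold change of 3.12 (SE 0.25, adjusted p = 6.4e-05), from 2.09, 3.64 and 2.73 RPKM in FOXA1-OE tumors. CDH17, at 14.0, 16.3 and 18.9 RPKM in FOXA1-OE tumors, differed by 2.87 (SE 0.33, adjusted p = 6.3e-04). PHGR1, at 13.4, 19.3 and 54.8 RPKM, differed by 4.46 (SE 0.83, adjusted p = 0.007), and FABP1, at 0.0184, 0.0475 and 1.74 RPKM, by 2.93 (SE 0.62, adjusted p = 0.013). The remaining calls were MYO7B (2.10), GPA33 (1.80), CDHR5 (1.63), TSPAN8 (1.59), VILL (1.25), LGALS4 (1.25) and TM4SF4 (1.02), each given as a log2 fold change. TM4SF4 (ENSG00000169903.6, chr3:149474697-149503394, plus strand) was called in this comparison, at 422, 309 and 213 RPKM in FOXA1-OE and 885, 572, 562, 499 and 566 RPKM in HNF4G-KO+FOXA1-OE tumors, a log2 fold change of 1.02 (SE 0.26, adjusted p = 0.032). Control tumors had 396, 371 and 492 RPKM and HNF4G-KO tumors 688, 589, 544 and 545 RPKM, with no call between them at 0.50 (SE 0.26, adjusted p = 0.23). In the fit of only these groups 2 of the 28 genes were higher, MYO1A and CDH17, beside 0.141% of all genes. Without FOXA1-OE tumor 3, 8 genes were called, beside 1.95% of all genes, and VILL, GPA33 and TM4SF4 were those lost. This comparison shares its HNF4G-KO+FOXA1-OE tumors with the one against control.

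DPP4 (ENSG00000197635.9, chr2:161992245-162074394, minus strand), a peptidase of the brush border, scattered widely in HNF4G-KO+FOXA1-OE tumors, at 12.3, 7.62, 15.9, 3.44 and 1.57 RPKM. FOXA1-OE tumors had 2.54, 1.94 and 0.869 RPKM, control tumors 5.75, 3.72 and 3.07 RPKM and HNF4G-KO tumors 3.87, 5.72, 5.31 and 4.92 RPKM. Its log2 fold change against FOXA1-OE, 1.28 (SE 0.47, adjusted p = 0.12), did not pass with all tumors and passed without HNF4G-KO+FOXA1-OE tumor 5 (adjusted p = 0.016). Of the 7 hydrolases and the 6 apical scaffold and transporter genes, 3 each were tested and none was called in these comparisons. The transporters tested were the sodium-proton exchanger SLC9A3, the glucose transporter SLC5A1 and the peptide transporter SLC15A1, with means of 1.06, 1.97 and 5.05 RPKM over the 21 samples. SLC15A1 measured 3.67, 3.63 and 3.12 RPKM in control and 5.08, 5.03, 5.06 and 5.09 RPKM in HNF4G-KO tumors, apart but not called at 0.44 (SE 0.19, adjusted p = 0.15). MEP1A and ANPEP, a metalloprotease and an aminopeptidase, did not pass in any comparison of HPAF-II samples. MEP1A was at 1.10, 0.487 and 0 RPKM in control and 0.0306, 0.0918 and 0.0849 RPKM in FOXA1-OE tumors.

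Between HNF4G-KO+FOXA1-OE and HNF4G-KO tumors, 0 of the 28 genes were called in limma, beside 0.106% of all genes, and 3 of the 28 and 3578 of all genes had an unadjusted p under 0.05. The median log2 fold change was 0.14. For MYO1A the difference was 0.40 (SE 0.23, adjusted p = 0.34) with an interval of -0.09 to 0.88, and for CDH17 it was 0.07 (SE 0.31, adjusted p = 0.91) with an interval of -0.59 to 0.73. PLS1 was lower in every HNF4G-KO+FOXA1-OE mouse than in every HNF4G-KO tumor once tumors 2 and 3 of the same mouse were averaged, but its log2 fold change of -0.95 (SE 0.46, adjusted p = 0.29) did not pass. The interaction, which tests whether the effect of FOXA1 differs with the HNF4G label, called 0 of the 28 genes beside 0.0352% of all genes, and 2 of the 28 and 1795 of all genes had an unadjusted p under 0.05. In limma-voom both counts were 0 of 28 as well. MYO1A had an interaction of 1.15 (SE 0.35, adjusted p = 0.38) with an interval of 0.40 to 1.90. With the 3 tumors that stood apart left out, DPP4 was the 1 gene of the 28 called in each test, beside 0.658% and 0.653% of all genes, at an adjusted p of 0.041 against HNF4G-KO and 0.034 for the interaction.

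Further brush border and enterocyte genes were read from a separate list. Of 55 listed brush border and enterocyte genes outside the 36, 32 were tested, and 7 were higher and none lower in HNF4G-KO than in control tumors, where 4.96% of all genes were higher, with a median log2 fold change of 0.48. The largest were NHERF4, a scaffold of apical transporters (1.61, adjusted p = 0.0067), the myosin MYH14 (1.14, 0.045), CREB3L3, a transcription factor of lipid metabolism (1.09, 0.0065), MYO5B, the motor of apical recycling (0.99, 0.012) and the hedgehog ligand IHH (0.86, 0.044), each as log2 fold change and adjusted p. HNF4G-KO+FOXA1-OE tumors had 7 of these 32 genes higher and none lower, beside 1.79% of all genes, led by PRAP1 (2.33, 0.037), the gut peptide GUCA2B (1.86, 0.005), NHERF4 (1.81, 0.005), AMN, the membrane anchor of the cobalamin receptor (1.76, 0.029), and MYH14 (1.73, 0.012). Against FOXA1-OE 8 of the 32 were higher, beside 2.96% of all genes, led by PRAP1 (2.41), GUCA2B (2.30) and NHERF4 (2.24), and 1, MS4A8, was lower (-1.42, 0.009). In FOXA1-OE against control none of the 32 was called.

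Of 14 intestinal transcription factors 10 were tested. HNF4A was higher in HNF4G-KO (0.84, adjusted p = 0.02) and HNF4G-KO+FOXA1-OE tumors (0.82, 0.034) than in control tumors, with levels of 14.6 to 21.9 RPKM, 15.8 to 20.0 RPKM and 8.49 to 11.3 RPKM. KLF5 was higher in HNF4G-KO tumors (1.27, 0.0026). HNF4G had a log2 fold change of 1.07 (adjusted p = 0.081) and CDX2, the master factor of intestinal identity, one of 0.89 (0.074), and neither passed. Against FOXA1-OE tumors, CDX2 (1.10, 0.04) and HNF4A (0.87, 0.016) were higher in HNF4G-KO+FOXA1-OE tumors. CDX1 was below the minimum, at a mean of 0.0656 RPKM. The list of 8 epithelial markers had no call in HNF4G-KO against control, with a median log2 fold change of -0.01. The 10 tested genes of the host stroma list had a median of -0.71 and the 10 of the host pancreas list of -1.76, also without a call. Of the other host lists, blood and spleen had 1 of 6 tested genes lower, mesothelium 1 of 4 higher and adipose 0 of 4 called. With the stroma level as a covariate 11 of the 28 genes were higher in HNF4G-KO tumors, but the share over all genes also rose, to 12%. The part of the other host lists in the brush border differences was not tested.

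In HNF4G-KO+FOXA1-OE mice 0 of the 28 genes were called in limma between metastases and tumors, beside 0.0151% of all genes, and 4 of the 28 and 1789 of all genes had an unadjusted p under 0.05. The limma-voom fit called 0 of the 28. The 4 metastases measured 54.5, 36.7, 27.8 and 48.0 RPKM of MYO1A, 129.9, 112, 103 and 178 RPKM of CDH17 and 951, 570.3, 197 and 541 RPKM of PHGR1, all above every control tumor. Metastases 1 and 2 came from the same mouse, and FOXA1 was at 0.535 RPKM in the first and 17.9 RPKM in the second. MYO1A and CDH17 were at 36.7 and 112 RPKM in number 2, inside the range of the others. SLC15A1 measured 8.09, 6.58, 8.70 and 6.48 RPKM in these metastases and 5.18, 4.50, 2.59, 4.29 and 4.88 RPKM in the tumors, a log2 fold change of 0.64 (SE 0.15, adjusted p = 0.39). FABP1 measured 3.62, 5.82, 1.83 and 2.31 RPKM in metastases, a log2 fold change of -1.54 (SE 0.85, adjusted p = 0.57) that went to 0.0196 with the stroma level as a covariate. The host stroma list summed to 79.2 to 223 RPKM in these metastases and 56.2 to 125 RPKM in the tumors.

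The 2 HNF4G-KO metastases differed from each other. Number 1 had 18.3 RPKM of FABP1, 1002 RPKM of PHGR1, 6.02 RPKM of GPA33 and 135 RPKM of CDH17, and number 2 had 0.0198, 190.5, 1.08 and 52.6 RPKM. Metastasis 2 was below metastasis 1 for 22 of the 28 genes. MYO1A was high in both, at 35.1 and 26.4 RPKM. In number 2 the host stroma list summed to 429 RPKM against 80.5 RPKM in number 1. Against the HNF4G-KO tumors 0 of the 28 genes were called, beside 0% of all genes, with 5 of the 28 and 2582 of all genes at an unadjusted p under 0.05, and 0 of the 28 were called in limma-voom. The median log2 fold change was -0.29, and it was 0.03 with the stroma level as a covariate, so that no direction of the list is given. DPP4 had -1.27 (SE 0.58, adjusted p = 0.38), and -0.50 with that covariate, and PLS1 had -0.91 (SE 0.39, adjusted p = 0.35).

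The 8 genes under the minimum had means below 0.3 RPKM over the 21 samples. Means of single groups were higher for some of them. In HNF4G-KO+FOXA1-OE mice they were 0.740 RPKM for TM4SF20 and 0.615 RPKM for SLC26A3. SI was listed at 0.753, 0.306 and 0 RPKM in control tumors and at no more than 0.0569 RPKM in any other sample. LCT stayed at or below 0.0476 RPKM everywhere. ALPI reached 0.722 RPKM in HNF4G-KO+FOXA1-OE tumor 1, SLC26A3, an anion exchanger, 1.33 RPKM in HNF4G-KO+FOXA1-OE tumor 5, and TM4SF20 1.14 RPKM in HNF4G-KO+FOXA1-OE tumor 1. Tumor groups of TM4SF20 had 0.217, 0.0723 and 0.0515 RPKM in control and 1.14, 0.491, 0.241, 0.421 and 1.04 RPKM in HNF4G-KO+FOXA1-OE tumors. In fits with no minimum, which took in these 8 genes, TM4SF20 was called higher in HNF4G-KO+FOXA1-OE than in FOXA1-OE tumors (log2 fold change 0.76, adjusted p = 0.026), beside 1.08% of all genes, and this was 1 call in 64 pairs of gene and HPAF-II comparison.

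In mouse, 23 of the 36 orthologs reached a mean of 0.3 RPKM over the 8 KPC libraries, among 16682 genes, and 13 did not. Ush1c and Sis were listed at 0 in every library, and Dpp4, Slc5a1 and Slc26a3 in 7 of the 8. Ezr, Lgals4, Tm4sf4 and Tspan8 were above 50 RPKM in every library, and Vil1 was at 19.8 to 34.5 RPKM. Myo1a, at 0.285 to 0.614 RPKM, and Phgr1, at 0 to 0.935 RPKM, were low. Over all libraries 0 of the 23 genes were called between the lines, beside 0% of all genes, where 0 of the 23 and 213 of all genes had an unadjusted p under 0.05. In limma-voom 0 of the 23 were called.

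The replicate numbers split this comparison. Cdhr2 measured 21.6 and 23.2 RPKM in tumor line libraries 1 and 2 but 1.24 and 1.40 RPKM in libraries 3 and 4, while the liver metastasis line measured 1.91 and 2.18 RPKM and then 26.6 and 17.6 RPKM. The same reversal was seen for Tm4sf4, at 440.1, 396, 109 and 100.05 RPKM in the tumor line and 98.1, 92.9, 455 and 447 RPKM in the metastasis line. Lgals4 ran from 428 and 469.8 RPKM to 52.1 and 141 RPKM in the tumor line and from 164 and 176 RPKM to 360.1 and 450.3 RPKM in the metastasis line. For 13 of the 23 genes both metastasis libraries lay below both tumor libraries among replicates 1 and 2 and above them among replicates 3 and 4, and for none the other way round. Over all genes the shares were 14.3% and 15.9%. Myo1a and Cdhr5 were higher in the metastasis line in both pairs. Fitted alone, replicates 1 and 2 called 9 of the 23 genes, 8 lower and 1 higher (Gpa33), beside 16.7% of all genes, and replicates 3 and 4 called Cdhr2 and Tm4sf4 as higher, beside 0.366% of all genes. Cdhr2 had log2 fold changes of -2.94 (SE 0.08, adjusted p = 0.0015) and 3.29 (SE 0.24, adjusted p = 0.036) in the 2 pairs, and Tm4sf4 of -2.12 (SE 0.08, adjusted p = 0.0027) and 2.10 (SE 0.18, adjusted p = 0.04). Whether the labels or the libraries account for this reversal cannot be told apart, so no direction between the lines is given.

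**Figure D4:**
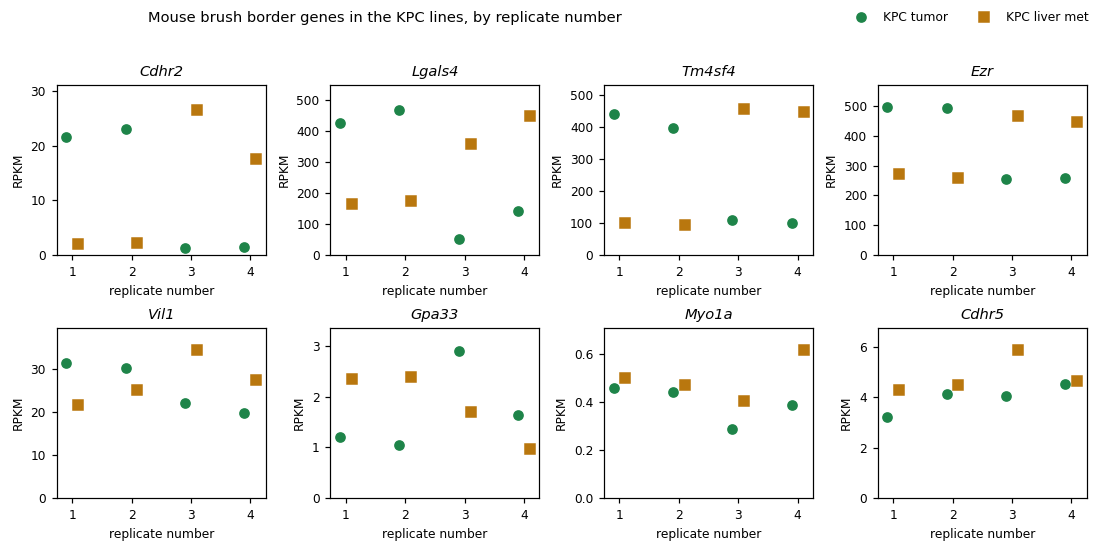
RPKM of 8 mouse brush border genes in each KPC library by replicate number, with circles for the tumor line and squares for the liver metastasis line. Cdhr2, Lgals4, Tm4sf4, Ezr and Vil1 are higher in the tumor line for replicates 1 and 2 and higher in the metastasis line for replicates 3 and 4.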

How the data were processed

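RNA was sequenced from 21 HPAF-II samples (15 primary tumors from 14 mice and 6 metastases) and 8 KPC cell line libraries. The values are RPKM per gene as deposited by the authors, whose processing notes name STAR 2.6.1a and featureCounts 2.0.4. The notes name GRCh38 and the methods GRCh37 for the human data, so coordinates were taken from the GRCh38 annotation by gene identifier. Reads of the mouse host were not separated here. Depth was worked out from the most common small step of the RPKM values, which was assumed to be 2 reads. It was 33.1 to 69.6 M reads in HPAF-II samples and 30.1 to 44.4 M in KPC libraries. Counted in those steps it was 16.6 to 34.8 M and 15.0 to 22.2 M.

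RPKM is not a count, so log2(RPKM + 1) was tested in limma 3.58.1 (R 4.3.3, moderated test with a trend, two-sided) with Benjamini-Hochberg adjustment over all genes whose mean reached 0.3 RPKM and a threshold of 0.05. Fold changes on this scale understate those of low genes. All primary tumors entered a single fit, with log2 values averaged where a mouse gave several samples of a kind. Metastases were fitted with the tumors of the 2 groups that had them. The members, gene lists and tests were chosen with earlier results of these data known. Values in every sample are given for members that were called or whose log2 fold change reached 1 in either direction in any HPAF-II comparison, others by range. Of the other lists, the called genes of largest log2 fold change were named, at most 5 per direction and comparison, along with HNF4G, HNF4A, CDX1 and CDX2, and 1 gene of the transcription factor list is not reported here. Alternatives covered the pseudocount, the filter, a common median, limma-voom on rebuilt reads, fits of only the groups compared, blocks, covariates and libraries left out. The scripts were tested on simulated data. Metastases and tumors of the same mouse were paired in an alternative with mouse as a block. For KPC, 12 columns belonged to no sample given here and were left out. Nothing in the labels separates all tumors of a group by culture, so p-values measure the spread between these samples.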

Additional observations from a re-analysis of the deposited data

Results flagged for a closer look

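In HNF4G-KO+FOXA1-OE tumors, GPA33 was highest in 1 of the 4 mice at 11.7 RPKM, and the gap to the next mouse was 0.844 of the range of the group. In the KPC liver metastasis line, Alpi was highest in 1 of the 4 libraries at 0.857 RPKM, with a gap of 0.913 of the range. These are 2 of 72 groups of values examined for a sample far from the others, and chance alone marks about 1 group in 20.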

How the results depend on the processing

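Among the 13 named genes, no called log2 fold change turned direction under the alternatives run. Against control, 9 genes were called in HNF4G-KO tumors, 15 in a fit of only these groups and 2 to 9 when a mouse was left out, with 2 without control tumor 2 or control tumor 3 and 4 without HNF4G-KO tumor 3. In HNF4G-KO+FOXA1-OE tumors 9 were called, 0 in the fit of only the groups compared, and 3 to 9 when a mouse was left out. Against FOXA1-OE 11 were called, 2 in the fit of only the groups compared and 8 to 12 when a mouse was left out. In all other comparisons, leaving out a mouse or library gave 0 to 0 calls. With the tumor number as a replicate block, 5 genes were called in HNF4G-KO+FOXA1-OE against control. Same-numbered tumors deviated together with correlations of -0.51 to 0.46 (median 0.03), so the numbers were not taken to pair the tumors. The block left the other counts within 1.5 times, and mouse as a block left both counts for metastases at 0. Of the alternatives chosen after seeing the data, leaving out FOXA1-OE tumor 3 and HNF4G-KO+FOXA1-OE tumors 4 and 5 gave 1 call against HNF4G-KO and 1 in the interaction. In KPC libraries 9 genes were called from replicates 1 and 2 alone and 2 from replicates 3 and 4 alone. FABP1 between HNF4G-KO+FOXA1-OE metastases and tumors moved from -1.54 to 0.0196 on the log2 scale with the host stroma level as a covariate. The cause of these changes was not tested. Over all 19900 genes, HNF4G-KO against control had 1857 calls, 6150 in the fit of only these groups, 5608 without the 3 tumors and 311 without control tumor 2. HNF4G-KO+FOXA1-OE against control had 736 calls, 307 with the tumor number as a block, 0 in the fit of only the groups compared, 2071 without the 3 tumors and 138 without control tumor 3, and against FOXA1-OE it had 1347, 35 in the fit of only the groups compared, 3129 with the covariate of short against long genes and 703 without FOXA1-OE tumor 1. Of the log2 fold changes of named genes under alternatives, 642 kept direction and side of the threshold, 94 lost the call, 11 gained it and 1 reversed. Few tumors per group limit all calls, and genes near the minimum of 0.3 RPKM are the least precise.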
